A study of Mus musculus with 6 samples.

Results

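The 33 genes described here encode the folding machinery of the endoplasmic reticulum (ER) and the unfolded protein response that controls it. They were taken by gene symbol from the deposited matrix of 54532 Ensembl gene IDs, and all 33 were found. The matrix comes from RNA sequencing of 6 subcutaneous tumours of G422, a mouse glioblastoma line, grown in Kunming mice, an outbred stock. In 3 tumours (shNgb) the cells carried a hairpin that the labels name for Ngb, the gene of neuroglobin, and in 3 tumours (shVec) they carried the vector control, in both cases by stable lentiviral transfer. The tumours are labelled untreated. The sources used here do not give the age, sex or number of the mice, or whether each line was a clone or a pool. The labels call the tumours of a group independent without naming separate mice, and a p-value here therefore reflects variation from tumour to tumour. Where a group came from a single transferred line, variation between lines is left out. The hairpin then cannot be told apart from other differences between the lines. The series' design text has Ngb, not a hairpin, transferred into the cells; the sample labels were followed.

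Secreted and membrane proteins fold in the ER, where HSP70 and HSP90 chaperones, lectin chaperones and disulfide isomerases act on them. Chains that fail to fold are moved back to the cytosol and degraded, a route called ER-associated degradation. When unfolded chains build up, the sensors IRE1 (gene Ern1), ATF6 and PERK (gene Eif2ak3) start the unfolded protein response. IRE1 splices the Xbp1 transcript into one that encodes an active transcription factor, and ATF6 is cut to release another, and both raise chaperone and degradation genes. PERK slows translation and raises Atf4 and its targets.

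The libraries held 21018697, 23913765 and 25620667 reads in shNgb and 22427004, 20005933 and 19630319 reads in shVec. Ngb had 18, 19 and 11 reads in shNgb and 28, 23 and 13 reads in shVec (log2 fold change -0.59, 95% interval -1.55 to 0.37, edgeR adjusted p = 0.9997), so a lower level in shNgb was not detected and the groups overlapped. Of the markers of glial and neural stem cells, Nes, Sox2, Vim and Cd44 were present in every library. Olig2 had 0 reads and Gfap, the astrocyte filament gene, had 0 to 6 reads per library. S100b and Fabp7, of the same list, had 2 to 6 and 0 to 8 reads per library. Of the 15203 genes that passed the filter on low counts, edgeR called 0 at an adjusted p under 0.05, with 392 at an unadjusted p under 0.05. limma-voom called 0 and DESeq2 called 5, none of them among the 33.

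The promoters of these genes are known for the ER stress response element (ERSE), a CCAAT box bound by NF-Y that is spaced from a CCACG box bound by ATF6. Promoter windows of 300 bases, from 250 bases before to 50 bases after the annotated start (RefSeq, build GRCm38.p6), were matched to 28 of the 33 genes and searched on both strands. The ERSE (CCAAT, 9 bases of any kind, then CCACG) was present in 10 of 28 member windows (35.7%), against 37 of all 27025 genes with a window (0.137%), so 10 of those 37 were members. The related ERSE-II (ATTGG, 1 base of any kind, then CCACG) was present in Dnajb11 and Herpud1, 7.14% of the members, against 12 genes in all (0.0444%). The core of the unfolded protein response element (TGACGTGG), whose CGTGG is the CCACG box read on the other strand, was present in Txndc5 and Txndc11, against 193 genes in all (0.714%). Of the other genes of the pathway, 78 in ER lists and 16 of the PERK arm, 79 had a window. Of these, 0 held an ERSE or ERSE-II, and Dnajc25, Ube2j1 and Vcp held the third element. A match is a description of letters in a window, and the members are genes known for this response.

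The stretches around the elements are shown for 7 of the 12 members with an ERSE or ERSE-II, to set chaperones, lectins and isomerases beside Herpud1, 5′ to 3′ along the gene's own strand and with the element in capitals. Hspa5 is at chr2:34772010-34772058 (plus strand), Hsp90b1 at chr10:86705518-86705671 (minus), Calr at chr8:84847060-84847108 (minus), Canx at chr11:50325785-50325833 (minus), Pdia6 at chr12:17266476-17266524 (plus), Creld2 at chr15:88819505-88819553 (plus) and Herpud1 at chr8:94386362-94386402 (plus), all in GRCm38.p6.
Hspa5: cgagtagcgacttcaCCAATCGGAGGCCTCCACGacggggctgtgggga
Hsp90b1: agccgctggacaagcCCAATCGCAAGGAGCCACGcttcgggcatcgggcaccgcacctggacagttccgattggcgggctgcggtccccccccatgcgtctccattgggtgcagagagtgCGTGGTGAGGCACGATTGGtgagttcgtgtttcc
Calr: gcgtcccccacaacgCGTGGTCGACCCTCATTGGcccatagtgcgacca
Canx: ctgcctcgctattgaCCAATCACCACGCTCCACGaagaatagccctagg
Pdia6: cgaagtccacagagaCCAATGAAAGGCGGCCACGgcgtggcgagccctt
Creld2: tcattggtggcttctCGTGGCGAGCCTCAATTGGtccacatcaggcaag
Herpud1: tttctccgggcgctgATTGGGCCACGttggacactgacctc
Hsp90b1 held 2 ERSEs, 1 on each strand. In Calr and Creld2 the element ran on the opposite strand, and in Hspa5, Canx and Pdia6 on the gene's own strand. Herpud1 held the shorter ERSE-II, at positions -52 to -42 from its start.

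**Figure D1:**
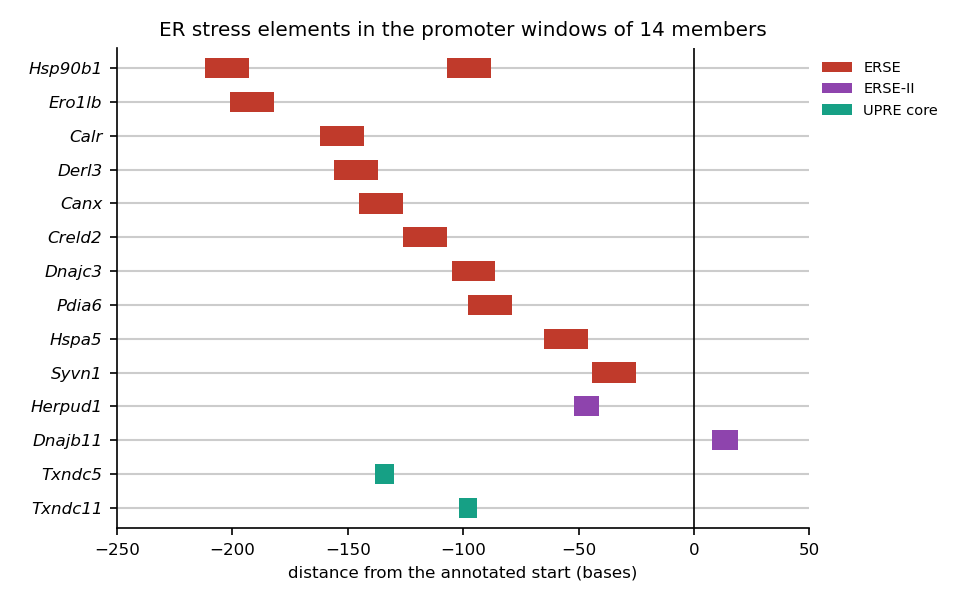
Position of the ERSE, the ERSE-II and the core of the unfolded protein response element in the promoter windows of the 14 members that held any of them. The x axis is the distance in bases from the annotated start (vertical line), each grey line is 1 window and each box is 1 element; the boxes lie between position -212 (Hsp90b1) and position 18 (Dnajb11).

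Chaperones and isomerases were among the most abundant transcripts of these tumours. By deposited FPKM (read density per length of transcript, scaled to depth), P4hb, the disulfide isomerase PDI, stood highest, at 384 ± 31.0 in shNgb and 384 ± 28.7 in shVec (SD, n = 3 each). Hspa5, which encodes the HSP70 chaperone BiP, followed at 348 ± 47.8 FPKM in shNgb and 349.5 ± 37.5 FPKM in shVec, and Calr, the lectin chaperone calreticulin, at 332 ± 50.1 FPKM in shNgb and 298 ± 38.9 FPKM in shVec. P4hb and Hspa5 overlapped in both groups, as did Hspa5 and Calr, while every P4hb value lay above every Calr value in shVec and P4hb was above Calr in all 6 tumours. Hsp90b1 (GRP94), Pdia3, Pdia6 and Canx were the other 4 members over 100 FPKM, 20 members lay between 10 and 100 and 6 lay below 10. In bulk tumours, fewer cells of a type and less RNA per cell cannot be told apart. Mean FPKM over the 6 tumours passed the 90th percentile of the 27834 genes with reads in 20 of the 33 members.

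At the low end, Wfs1, an ER membrane glycoprotein known for Wolfram syndrome, stood at 0.130 ± 0.026 FPKM in shNgb and 0.094 ± 0.034 FPKM in shVec. Derl3, the derlin known from secretory cells, stood at 0.978 ± 0.256 FPKM in shNgb and 0.846 ± 0.093 FPKM in shVec, and Ero1lb, an oxidase that recharges the isomerases, at 3.17 ± 0.15 FPKM in shNgb and 2.94 ± 0.12 FPKM in shVec. The regulators lay below these abundant chaperones: Xbp1 stood at 32.1 ± 3.69 FPKM in shNgb and 34.5 ± 2.63 FPKM in shVec, Ern1 at 12.1 ± 0.50 FPKM in shNgb and 14.1 ± 2.62 FPKM in shVec, and Atf6 at 6.27 ± 0.60 FPKM in shNgb and 6.83 ± 0.86 FPKM in shVec.

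**Figure D2:**
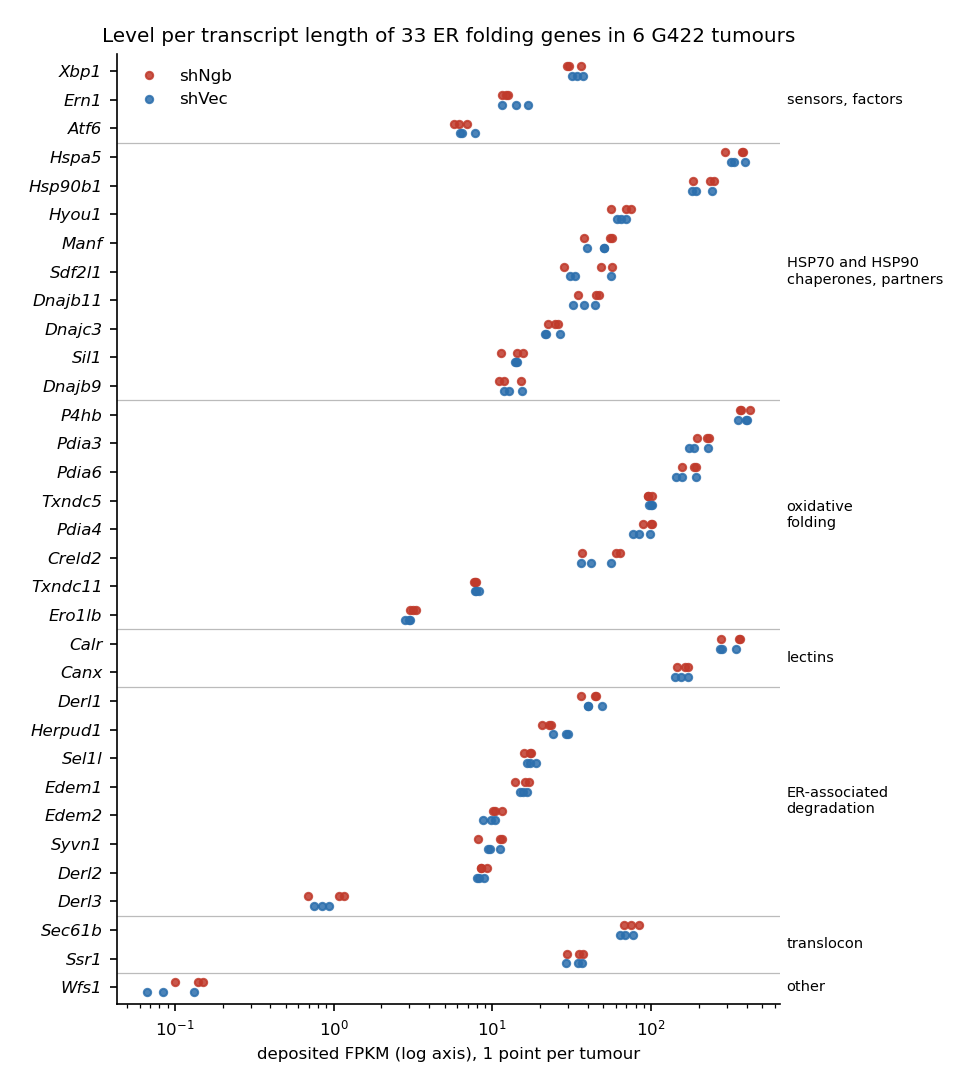
Deposited FPKM on a log axis for the 33 members, grouped by role, with 1 point per tumour (red, shNgb; blue, shVec). The members span from 0.112 FPKM (Wfs1) to 384 FPKM (P4hb) on average, and the groups overlap in every gene but Herpud1.

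The 33 members did not separate the tumour groups. All 33 passed the filter on low counts, and edgeR called 0 of them (0% of all tested genes were called); DESeq2 and limma-voom called 0 as well (0.018% and 0% of the genes they tested). Log2 fold changes (shNgb minus shVec) ran from -0.31 to 0.46, with 22 members above 0, 11 below 0 and a median of 0.05. The number below 0 was 7 without shNgb replicate 2, 17 without shNgb replicate 3 and 18 without shVec replicate 3, so the split of directions rested on single tumours. Over all tested genes the median was 0.003, and 49.1% lay below 0. The log2 fold change was under 0.2 in size in 28 of 33 members, against 72.6% of all tested genes. The 95% interval stayed within a 1.5-fold change either way in 29 of 33 members, against 59.8% of all tested genes. The remaining 4, Wfs1, Sdf2l1, Creld2 and Derl3, had wider intervals.

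**Figure D3:**
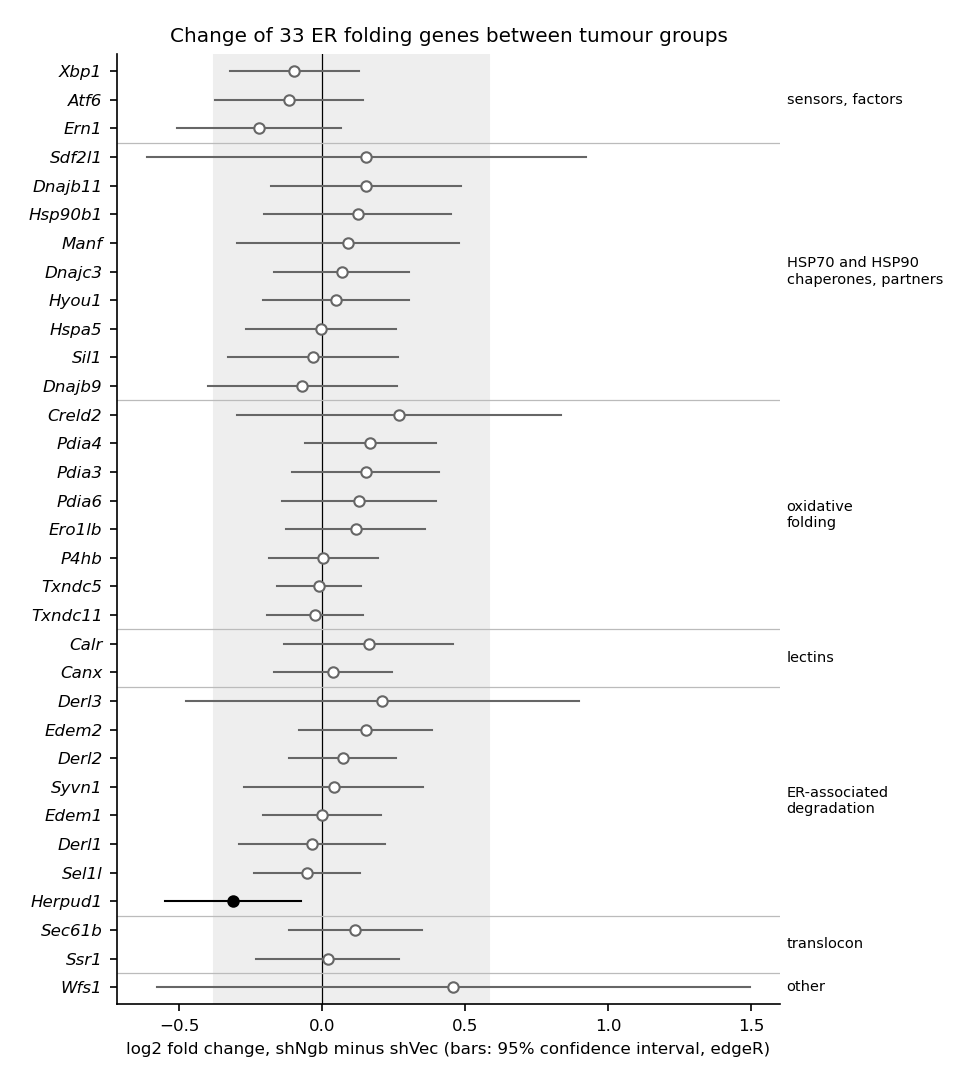
Log2 fold change (shNgb minus shVec) of each member with its 95% confidence interval from edgeR, grouped by role; the grey band spans the 5th to the 95th percentile of all tested genes (-0.38 to 0.58). The filled point is Herpud1 (-0.31), where the groups did not overlap, and the other 32 intervals include 0.

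The regulators of the response stood slightly lower in shNgb in all 3 cases, past no threshold. Ern1, the IRE1 sensor, had 103, 95.7 and 100.3 CPM (counts per library scaled to a common size) in shNgb, against 94.98, 115 and 138 CPM in shVec, with a log2 fold change of -0.22 (SE 0.13, 95% interval -0.51 to 0.07). The highest 2 of the 6 values were shVec 2 and shVec 3, while shVec 1 was the lowest of all. Without shVec replicate 1 the log2 fold change was -0.35, with an edgeR adjusted p of 0.9998. Atf6 had 56.9, 64.8 and 53.5 CPM in shNgb and 57.7, 59.9 and 72.5 CPM in shVec (log2 fold change -0.12, SE 0.11), and its groups overlapped. Xbp1 had 119, 99.97 and 97.2 CPM in shNgb and 112, 121 and 104 CPM in shVec (-0.10, SE 0.10), again with overlap. Gene counts sum the spliced and unspliced forms of Xbp1, so the activity of IRE1 was not measured. The edgeR adjusted p of all 3 was 0.9997.

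In the HSP70 and HSP90 system the spread lay between tumours within groups. Hspa5 had 1581, 1252 and 1612 CPM in shNgb and 1362, 1667 and 1426 CPM in shVec. The lowest value was shNgb 2 and the highest shVec 2, and the log2 fold change was -0.003 (SE 0.12, 95% interval -0.27 to 0.26), or a fold between 0.832 and 1.20. Hsp90b1, the ER member of the HSP90 family, had 1008, 746 and 959 CPM in shNgb and 737, 977 and 775 CPM in shVec (0.12, SE 0.14). As in Hspa5, shNgb 2 lay below the other shNgb tumours and shVec 2 above the other shVec tumours. The other 7 members of this group, namely Hyou1 (a large HSP70 relative), the J-domain co-chaperones Dnajb9, Dnajb11 and Dnajc3, the nucleotide exchange factor Sil1, Sdf2l1 and the secreted factor Manf, had log2 fold changes from -0.07 to 0.15. Sdf2l1, a partner of J-domain proteins, varied most, with 53.6, 31.9 and 63.2 CPM in shNgb and 37.1, 62.2 and 34.4 CPM in shVec, a range of 1.98-fold. Its groups overlapped, and its interval of -0.61 to 0.92 on the log2 scale leaves room for a difference of over 1.5-fold.

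Among the genes of oxidative folding, 6 of 8 stood above 0. Pdia4, an isomerase with several thioredoxin-like domains, had 239.9, 217 and 246 CPM in shNgb and 201, 238 and 186 CPM in shVec, with a log2 fold change of 0.17 (SE 0.10, 95% interval -0.06 to 0.40). Pdia3, the isomerase that works with calreticulin and calnexin, had 732, 615 and 717 CPM in shNgb and 588, 721 and 549 CPM in shVec (0.15, SE 0.11). In both genes shVec 1 and shVec 3 were the lowest values and shVec 2 lay among the shNgb tumours. Creld2, an ER stress-inducible protein with isomerase activity, had 82.1, 51.2 and 88.3 CPM in shNgb and 57.3, 77.0 and 49.6 CPM in shVec (0.27, SE 0.24), and its groups overlapped. P4hb had 1204, 1057 and 1060.0 CPM in shNgb and 1158, 1143 and 1009 CPM in shVec (0.004, SE 0.08). Ero1lb had 20.2, 21.4 and 22.3 CPM in shNgb and 20.3, 19.9 and 18.8 CPM in shVec (0.12, SE 0.11), its groups overlapping by less than 1 CPM. Txndc5 and Txndc11, which carry thioredoxin domains, were the steadiest members, with ranges of 1.05-fold and 1.07-fold over the 6 tumours, and Pdia6 stood at 0.13 (SE 0.12). The edgeR adjusted p was 0.9997 for each gene of this group.

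The lectin chaperones followed the same order of tumours. Calr had 1031, 801 and 1063 CPM in shNgb and 809, 992 and 786 CPM in shVec (log2 fold change 0.16, SE 0.13, 95% interval -0.13 to 0.46). Values of shNgb 1, shNgb 3 and shVec 2 were high and those of the other tumours low. Canx, the membrane-bound partner calnexin, stood at 754 ± 58.2 CPM in shNgb and 735 ± 68.3 CPM in shVec (0.04, SE 0.09).

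Herpud1 was the member that came nearest to a difference. It encodes a membrane protein of the degradation complex and is a known target of both ATF6 and ATF4. It had 54.7, 53.8 and 48.7 CPM in shNgb, against 56.4, 68.8 and 70.2 CPM in shVec. All 3 shNgb values lay below all 3 shVec values, with a gap of under 2 CPM between shNgb 1 and shVec 1. The log2 fold change was -0.31 (SE 0.10, 95% interval -0.55 to -0.08), or a fold of 0.805, with an edgeR p of 0.0156 unadjusted and 0.9997 adjusted over all genes, so it was not called. It was the 1 member of 33 with an unadjusted p under 0.05 and the 1 member whose groups did not overlap. Over all tested genes 2.58% had an unadjusted p under 0.05, 1.22% lower and 1.35% higher in shNgb. Groups did not overlap in 3.43% of all tested genes in the lower direction and in 3.67% in the higher direction, where the members had 0. Counts of 1 in 33 lie near what all genes gave. Its unadjusted p was 0.0543 without shVec replicate 2 and 0.0644 without shVec replicate 3. Herpud1 (ENSMUSG00000031770) lies on chromosome 8 at 94386438 to 94395377, plus strand, in GENCODE M21 (GRCm38).

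The other 7 degradation genes ranged from -0.05 to 0.21. Edem2, a mannosidase-like protein that marks glycoproteins for degradation, had 36.1, 35.4 and 40.4 CPM in shNgb and 35.9, 34.4 and 30.4 CPM in shVec (0.15, SE 0.10). Its groups overlapped only through shVec 1 and shNgb 2. Sel1l and Syvn1, the adaptor and the ubiquitin ligase of the main degradation complex, stood at -0.05 (SE 0.08) and 0.04 (SE 0.14), and Edem1 at 0.0005 (SE 0.09). Derl1 and Derl2, membrane proteins of the export route, stood at -0.04 (SE 0.11) and 0.07 (SE 0.08). Derl3 had 2.17, 2.34 and 1.38 CPM in shNgb and 1.69, 1.51 and 1.88 CPM in shVec (0.21, SE 0.30), a level too low for a narrow interval. Transcripts of plasma cells, which are rich in Derl3, were low: of 15 plasma and B cell markers 5 were tested, 4 of them above 0, the 10 that were not tested, Mzb1 among them, had at most 69 reads over all 6 libraries, and 0 markers were at 0 reads in every library. The summed level of the 15 ran from 238 to 259 CPM in shNgb and from 214 to 303 CPM in shVec, most of it Sdc1, which other cells can also express. The antibody genes had positive log2 fold changes, with groups that overlapped. Igha had 1.11, 4.81 and 8.24 CPM in shNgb and 2.14, 0.454 and 0.815 CPM in shVec (log2 fold change 2.04, SE 0.81). Igkc had 0.627, 4.53 and 5.75 CPM in shNgb and 1.46, 0.554 and 1.27 CPM in shVec (1.73, SE 0.75). Jchain had 0.338, 1.89 and 2.57 CPM in shNgb and 0.683, 0.151 and 0.509 CPM in shVec (1.83, SE 0.75). These 3 genes were highest in shNgb 3, the tumour in which Derl3 was lowest. The part of plasma cells in the member values was not tested.

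At the translocon, where new chains enter the ER, Sec61b, the small subunit of the channel, had 107, 87.4 and 95.8 CPM in shNgb and 98.7, 87.1 and 81.8 CPM in shVec (0.12, SE 0.10). The groups overlapped, with shNgb 1 highest and shVec 3 lowest. Ssr1, a subunit of the translocon-associated complex, stood at 357 ± 39.5 CPM in shNgb and 352 ± 40.5 CPM in shVec (0.02, SE 0.11). Wfs1 had 0.530, 0.576 and 0.383 CPM in shNgb and 0.319, 0.504 and 0.255 CPM in shVec. Its log2 fold change of 0.46 was the highest of the list and its interval, -0.58 to 1.495, the widest.

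The larger pattern was between single tumours. Summed over the 33 members, levels were 10413, 8615 and 10283 CPM in shNgb and 9059, 10364 and 8751 CPM in shVec, or 9771 ± 1003 CPM in shNgb and 9392 ± 856 CPM in shVec (SD, n = 3 each). shNgb 1, shNgb 3 and shVec 2 were high, shNgb 2, shVec 1 and shVec 3 were low, and the groups overlapped. shNgb 2 was the lowest of its group in 25 of 33 members, against 34.6% of all tested genes. shVec 2 was the highest of its group in 19 members and shVec 3 the lowest in 23, against 35.1% and 30.3% of all tested genes. The members share a library in each such count, so they are not independent of each other. The biological coefficient of variation, edgeR's measure of spread between tumours, had a median of 0.108 over the members and 0.148 over all tested genes. Of the members, 28 of 33 lay below the median of all tested genes. Low spread was not particular to the members. The 77 tested genes of the other ER lists, without the PERK arm, had a lower median of 0.095. Their median range over the tumours was 1.22-fold, against 1.33-fold over the members.

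**Figure D4:**
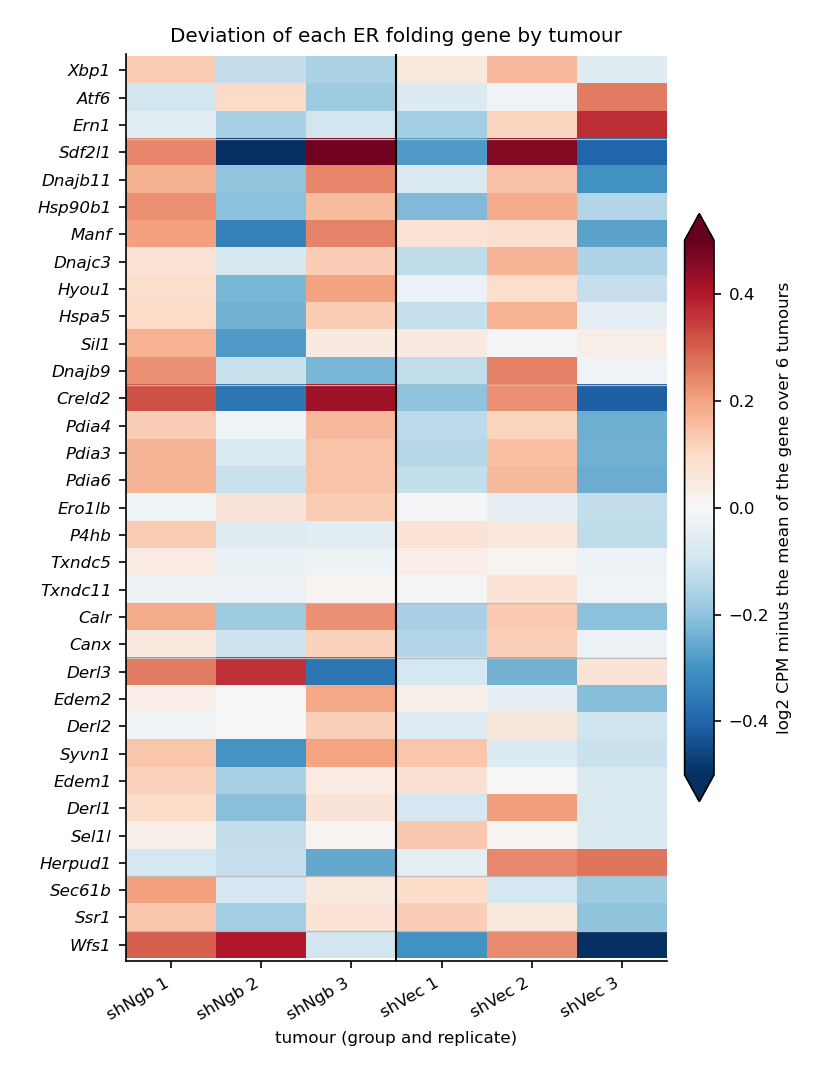
Deviation of each member's log2 CPM from its own mean over the 6 tumours (red higher, blue lower; colours saturate at 0.5), with shNgb tumours left of the line and shVec tumours right of it. shNgb 2 and shVec 3 are blue and shVec 2 red in most chaperone and isomerase rows. Herpud1 and Ern1 are blue in all 3 shNgb tumours and also in shVec 1, faintly so for Herpud1. Txndc5 and Txndc11 are nearly white.

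The 12 members with an ERSE or ERSE-II in the window had a median log2 fold change of 0.12 (10 above 0, 2 below), and the 16 members with a window but neither element 0.01 (10 above 0, 6 below). Their median ranges over the 6 tumours, highest over lowest, were 1.36-fold and 1.29-fold. shNgb 2 was the lowest shNgb tumour in 9 of the 12 and in 12 of the 16. These are descriptions, and the sets were not tested against each other.

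Other genes of the pathway, 78 in 5 lists that leave out the PERK arm, were also near 0 for the most part. Of the 77 tested, 40 stood above 0 and 37 below, with a median log2 fold change of 0.006. The log2 fold change was under 0.2 in size in 74 of the 77, against 28 of the 33 members. By edgeR 0 of the 77 were called and 1 had an unadjusted p under 0.05, against 2.58% of all tested genes. That gene was Ero1l, the hypoxia-inducible oxidase of the isomerases and the relative of Ero1lb. It had 258, 207 and 160.1 CPM in shNgb, against 295, 301 and 354 CPM in shVec, without overlap (log2 fold change -0.60, SE 0.17). Its p from edgeR's quasi-likelihood test was 0.00744 unadjusted and 0.9997 adjusted over all genes. Hypoxia genes stood lower in the same tumours: all 10 of a list of 10 were below 0, against 49.1% of all tested genes. By edgeR 0 of the 10 were called and 4 had an unadjusted p under 0.05. Over all tested genes 1.22% had such a p in the lower direction. Groups did not overlap in 6 of the 10, all lower in shNgb, against 3.43% of all tested genes. The summed level of the 10 was 2924 to 4170 CPM in shNgb and 4414 to 4552 CPM in shVec. In shNgb, replicate 1 was highest and replicate 3 lowest in this sum, in Ero1l and in Herpud1. In shVec the orders differed: replicate 3 was lowest in the hypoxia sum (4440, 4552 and 4414 CPM) but highest in Ero1l and in Herpud1. The part of hypoxia in the Ero1l and Herpud1 values was not tested. Herpud2, the paralogue of Herpud1, had 43.0, 45.4 and 40.7 CPM in shNgb and 49.7, 46.3 and 51.9 CPM in shVec (log2 fold change -0.20, SE 0.09), also without overlap. Ero1l and Herpud2 were the 2 of 77 without overlap in the lower direction, against 3.43% of all tested genes. Eif2ak3, the PERK gene, was level (-0.03, SE 0.12). Macrophage markers, 9 of 9 tested above 0, summed to 119 to 311 CPM in shNgb and 102 to 201 CPM in shVec. T and NK cell markers, 8 of 8 tested above 0, summed to 3.76 to 32.8 CPM in shNgb and 2.95 to 15.02 CPM in shVec. Fibroblast markers, 6 of 7 tested above 0, summed to 1174 to 2450 CPM in shNgb and 1746 to 2022 CPM in shVec, and among them Col1a1 had 354, 209.7 and 281 CPM in shNgb and 197, 139 and 130.1 CPM in shVec, without overlap (log2 fold change 0.86, SE 0.23). In these 3 lists 0 markers were at 0 reads in every library. Of the glioma, glial and neural stem markers, 5 of 6 tested stood below 0. Among them Nes had 439, 383 and 420 CPM in shNgb and 477, 545 and 496 CPM in shVec, without overlap. Its log2 fold change was -0.29 (SE 0.08), with an edgeR adjusted p of 0.9997. Skeletal muscle markers stood below 0 in 4 of 4 tested, and endothelial markers in 4 of 7. The part of these cell types in the member values was not tested.

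The remaining genes named from these lists by smallest p stayed past no threshold. Among UPR regulators, Creb3 stood at 0.11 (SE 0.11), the protease gene Mbtps2 at -0.07 (SE 0.08) and Creb3l1 at -0.31 (SE 0.42). Among chaperones, Cdnf, a relative of Manf, stood at -0.67 (SE 0.46) at about 1 CPM or less, the prolyl isomerase Ppib at 0.12 (SE 0.09) and Cnpy2 at 0.15 (SE 0.11). Thioredoxin-related Tmx4 and Tmx1 stood at -0.19 (SE 0.11) and 0.12 (SE 0.10). Uggt1, the folding sensor of glycoproteins, stood at 0.07 (SE 0.07) and Edem3 at -0.08 (SE 0.08). Of the translocation and glycosylation genes, Rpn1, Sec61g and Ssr2 stood at 0.14 (SE 0.14), 0.06 (SE 0.07) and 0.09 (SE 0.11).

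The 16 genes of the PERK arm and the integrated stress response all had log2 fold changes below 0, with a median of -0.29. Over all tested genes 49.1% lay below 0, and the list was chosen with earlier results known. By edgeR 5 of the 16 had an unadjusted p under 0.05 (Ppp1r15a, Chac1, Atf4, Atf3 and Sesn2), all lower in shNgb. Over all tested genes this share was 1.22% in the lower direction. Groups did not overlap in that direction in 5 of the 16, against 3.43% of all tested genes. After adjustment edgeR called 0 of the 16. Ppp1r15a was called by DESeq2 and by edgeR with no filter beyond 1 read. Ppp1r15a, the phosphatase subunit that restores translation, had 34.7, 32.9 and 28.2 CPM in shNgb and 52.7, 47.3 and 68.3 CPM in shVec (-0.81, SE 0.15). Chac1, a glutathione-degrading enzyme, had 35.0, 51.5 and 40.9 CPM in shNgb and 57.8, 66.1 and 71.8 CPM in shVec (-0.62, SE 0.15). Atf4 had 466, 468 and 415 CPM in shNgb and 495, 598 and 607 CPM in shVec (-0.33, SE 0.10), and the groups overlapped in none of these 3 genes. The summed level of the list was 2119 to 2730 CPM in shNgb and 2872 to 3212 CPM in shVec. As with the hypoxia genes, the groups did not overlap in this sum, and within shNgb replicate 1 was highest and replicate 3 lowest. Within shVec, replicate 3 was highest in this sum but lowest in that of the hypoxia genes. Of the list, Ddit4 had 330, 245 and 113 CPM in shNgb and 495, 333 and 420 CPM in shVec. Between shNgb 1 and shVec 1, Ddit4 differed by more than the whole sum did (2730 and 2872 CPM). Single genes had other orders within shNgb, with Chac1 lowest in replicate 1. Atf4 was highest of the shNgb tumours in replicate 2, though only by 468 against 466 CPM in replicate 1. The part of hypoxia in these values was not tested. The difference between this list and the 33 members was not tested.

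**Figure D5:**
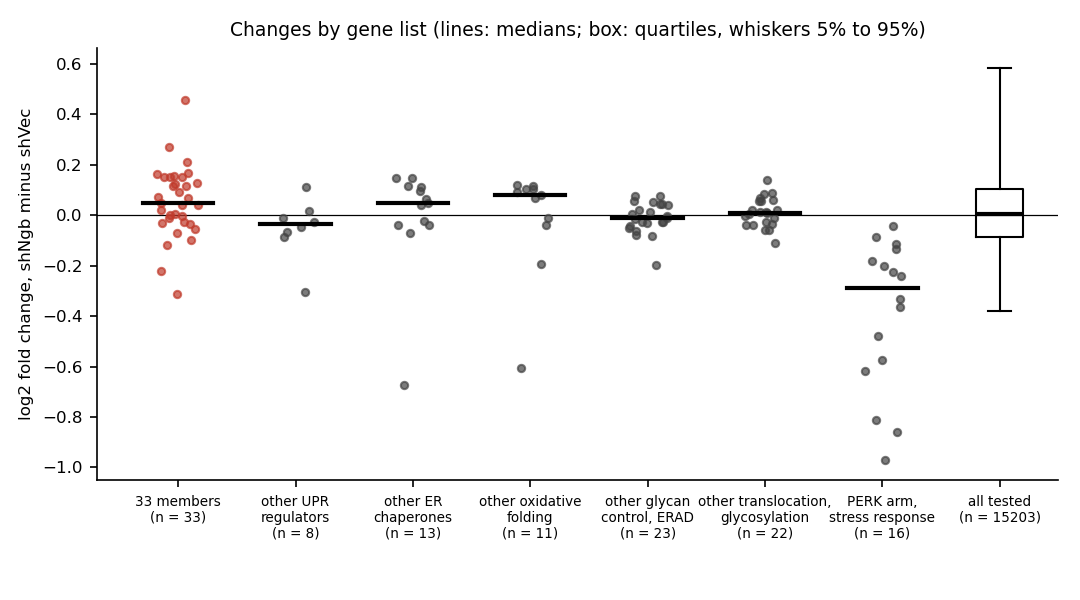
Log2 fold changes (shNgb minus shVec) by gene list, 1 point per tested gene and a line at each median, with all tested genes as a box (quartiles) with whiskers from the 5th to the 95th percentile. The 33 members (median 0.05) and the other ER lists lie around 0, and the 16 genes of the PERK arm (median -0.29) lie below 0.

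Reads could be shared with neighbours or copies in a few members, since the kit does not mark strand. Derl2, Manf, Syvn1 and Txndc11 each share exon sequence with a well-expressed gene on the opposite strand (Mis12, Dcaf1, Mrpl49 and Snn), over 2.9%, 4.1%, 1.9% and 0.8% of the member's exonic bases. Hsp90b1 shares 10.3% of its exonic bases with 1810014B01Rik, a pseudogene on the opposite strand of the same locus, whose reads were 0.334% of those of Hsp90b1. Near-identical copies elsewhere (at least 95% identity over 250 bases) with reads were found for Derl1, Ero1lb and Sec61b. The reads of each copy were at most 1.47% of the member's own.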

How the data were processed

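Per the labels' protocols, Trizol was used for extraction and a TruSeq kit, which does not mark strand, for the libraries. The submitters' processing notes list Bowtie 0.12.2, mm8 and mm10 with no role; no source used here names the counter or the annotation. The authors deposited whole-number read counts per gene, without normalization, and FPKM per sample. Deposited FPKM equalled scaled counts in all 11113 genes over 50 reads in each library, with a largest relative deviation of 5.3e-09, and served only to compare genes per length.

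Symbols came from GENCODE M21 (54409 of 54532 IDs); IDs without a symbol held at most 0.0269% of a library. Counts were tested with edgeR 4.0.16 in R 4.3.3: default expression filter, TMM scaling, robust quasi-likelihood F-test and Benjamini-Hochberg adjustment over all 15203 tested genes, called under 0.05. SEs and 95% intervals derive from the F statistic. CPM carry TMM scaling. Alternatives were RLE and upper quartile scaling, a looser and a stricter filter, DESeq2 1.42.0, voom (limma 3.58.1), a block on the replicate number, and leaving out each tumour. Copies were sought with blastn 2.17.0.

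The members and lists were chosen with earlier results of these data known. Values in every tumour are given for Hspa5, Hsp90b1, Xbp1, Ern1 and Atf6, for members without overlap, for the 8 of smallest p and for the 3 highest and 3 lowest per length; other lists give up to 3 genes of smallest p. Sdf2l1 in every tumour, Eif2ak3, Atf3, Sesn2 and Ddit4 were named after their values were seen. Protein sequences were not used here.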

Additional observations from a re-analysis of the deposited data

How the results depend on the processing

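No member was called in the main edgeR test or under any of the 13 alternatives. DESeq2 and limma-voom were themselves among the 13, each run on all tumours, and the other alternatives used edgeR. The number of genes called in all was 0 in the edgeR test, 3 with no filter beyond 1 read (Klf4, Ppp1r15a and Nlrp1c-ps), 5 with DESeq2 (Rpl17-ps10, Col1a1, Klf4, Ppp1r15a and Hmgn2) and 1 with the replicate block (Rpl17-ps10). Herpud1 kept a negative log2 fold change throughout, from -0.41 to -0.26, with unadjusted p from 0.00252 to 0.0644. Leaving out 1 tumour at a time gave 0 to 3 members with an unadjusted p under 0.05, against 1. The count was 0 without shVec replicate 3, 3 without shVec replicate 2 (Pdia3, Pdia4 and Pdia6), 2 without shVec replicate 1 (Ern1 and Herpud1) and 3 without shNgb replicate 2 (Calr, Creld2 and Herpud1). Members below 0 numbered 7 to 18, against 11, namely 7 when shNgb replicate 2 was left out, 17 for shNgb replicate 3 and 18 for shVec replicate 3. The median log2 fold change of the members stayed between -0.005 and 0.11, less than its spread between tumours of 0.128 away from 0.05. The sign changed in members near 0. Hspa5 was at 0.0142 with upper quartile scaling, 0.0037 with no filter beyond 1 read and -0.0704 to 0.105 when 1 tumour was left out. P4hb was at -0.000575 with RLE scaling, -0.000628 with DESeq2 and -0.0626 to 0.0387 when 1 tumour was left out. The strict filter (10 reads and 1 CPM in 3 libraries) left out Wfs1. The labels do not say whether the replicate numbers pair the tumours. Deviations of same-numbered tumours correlated at 0.257, -0.145 and -0.0987 for numbers 1, 2 and 3. Between different numbers the correlations ran from -0.259 to 0.327, so these values cannot decide whether tumours were paired. The replicate block left Herpud1 at -0.31 and changed no call of a member. Low counts limit Wfs1 and Derl3.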

Other observations

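A pair of genes from the other ER lists, chosen after their values were seen, varied 3.23-fold and 2.37-fold over the 6 tumours, against a median of 1.33-fold over the 33 members and 2.26-fold in Wfs1, the most variable member. Creb3l1, an ER-bound transcription factor known for collagen synthesis in bone, had 19.8, 24.6 and 9.43 CPM in shNgb and 30.4, 13.2 and 22.8 CPM in shVec. Fkbp14, an ER prolyl isomerase known for collagen folding, had 20.97, 25.9 and 13.1 CPM in shNgb and 31.1, 13.3 and 17.1 CPM in shVec. In both genes shVec 1 was the highest and shNgb 3 the lowest of the 6 tumours, an order that none of Hspa5, Hsp90b1, Calr or Pdia3 had, and the groups overlapped.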
